A study of Rattus norvegicus with 9 samples.

Results

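The antioxidant and NRF2 target genes described here are 10 genes of the rat knee: Hmox1, Nqo1, Gclc, Gclm, Txnrd1, Srxn1, Slc7a11, Sod2, Sod3 and Cat. They were chosen by name, with earlier results of these data known. Each is 1 row of a table of 17602 genes measured by RNA sequencing. All 10 were among the 16512 genes that were tested. The study removed part of the medial meniscus of rats and asked which genes were expressed in the tissue that grew back. All animals were wild-type male Lewis rats of 10 to 12 weeks of age, and each group had 3 libraries. The intact group had no surgery, and the synovium around the medial meniscus was taken. In the sham group, the joint capsule was opened and closed, and the same synovium was taken 1 week later. In the pMx group (partial medial meniscectomy), the meniscotibial ligament was cut, the anterior part of the medial meniscus was removed, and the regenerating tissue was taken 1 week later after the synovium around it had been cleared away. The surgery and the tissue therefore differ together between pMx and sham, and their parts cannot be told apart. The labels call the libraries biological replicates, but whether each came from its own animal or from pooled knees is not stated, so the p-values measure the spread between these libraries only.

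Values are TPM, a measure of transcript abundance scaled for transcript length and to the same total in each library. The depth behind them is unknown, and the error given is the spread over 3 libraries. Changes are log2 fold changes of TPM + 1 with a standard error (SE) from limma, with adjusted p-values by Benjamini-Hochberg over all tested genes. A gene is said to have risen or fallen where the adjusted p was below 0.05, and it is called a differentially expressed gene (DEG) where the absolute log2 fold change was also above 1. The same sham libraries enter pMx versus sham and sham versus intact, so these comparisons are not independent. In whole tissue, fewer cells of a type and less RNA per cell cannot be told apart. The RNA integrity values of the study rose from intact to sham to pMx without overlap, and the part of RNA quality in the changes was not tested.

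NRF2, encoded by Nfe2l2, is a transcription factor that is held in check by KEAP1 and broken down until oxidants or electrophiles modify KEAP1. It then pairs with a small MAF protein and binds antioxidant response elements near genes for heme breakdown, quinone reduction, glutathione synthesis and thioredoxin recycling. Superoxide dismutases turn superoxide into hydrogen peroxide, and catalase, peroxiredoxins and glutathione peroxidases remove hydrogen peroxide. In joints, these enzymes have been studied mainly in cartilage and synovium under inflammation and mechanical load.

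Promoter windows are shown because the binding element of NRF2 is what several of these genes are known for. RefSeq windows of the assembly GRCr8, from 250 bases before to 50 bases after the start of a gene, were matched for 8 of the 10 genes. Txnrd1 had 2 starts, which gives 9 windows, and Hmox1 and Sod3 had no entry. The core of the antioxidant response element was searched as TGACNNNGC, and the AP-1 motif, bound by FOS and JUN proteins, as TGANTCA, each on both strands; no found site overlapped another. Of 33469 windows of the same length, 12.06% held the first and 7.33% the second. The core was found once each in the windows of Gclm (chr2:213031885-213032184, plus strand), Txnrd1 (second start, chr7:22755855-22756154, minus strand) and Sod2 (chr1:50050119-50050418, minus strand), and the AP-1 letters were found at 2 places in Srxn1 (chr3:161064562-161064861, plus strand). In the sequences, written 5′ to 3′ on the strand of the gene, capitals mark these matches. The core lies on the opposite strand of the gene in all 3 windows, so the capitals show its reverse complement.
Gclm: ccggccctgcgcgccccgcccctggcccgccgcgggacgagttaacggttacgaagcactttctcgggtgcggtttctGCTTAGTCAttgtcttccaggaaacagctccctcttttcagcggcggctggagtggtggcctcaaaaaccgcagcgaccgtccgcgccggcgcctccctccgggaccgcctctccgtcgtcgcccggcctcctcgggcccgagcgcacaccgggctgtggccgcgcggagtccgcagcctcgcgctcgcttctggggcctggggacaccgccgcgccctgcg
Txnrd1: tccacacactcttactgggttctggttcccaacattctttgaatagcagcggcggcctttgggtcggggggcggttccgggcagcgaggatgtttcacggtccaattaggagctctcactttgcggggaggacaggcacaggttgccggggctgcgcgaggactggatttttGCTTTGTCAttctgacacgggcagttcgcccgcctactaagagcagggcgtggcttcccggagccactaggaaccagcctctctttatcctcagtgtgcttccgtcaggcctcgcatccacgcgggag
Sod2: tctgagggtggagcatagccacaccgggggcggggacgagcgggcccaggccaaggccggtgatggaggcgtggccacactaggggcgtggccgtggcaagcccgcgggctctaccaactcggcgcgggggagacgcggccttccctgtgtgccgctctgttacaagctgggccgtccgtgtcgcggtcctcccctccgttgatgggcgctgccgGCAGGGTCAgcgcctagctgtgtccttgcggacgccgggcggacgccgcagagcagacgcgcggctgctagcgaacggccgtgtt
Srxn1: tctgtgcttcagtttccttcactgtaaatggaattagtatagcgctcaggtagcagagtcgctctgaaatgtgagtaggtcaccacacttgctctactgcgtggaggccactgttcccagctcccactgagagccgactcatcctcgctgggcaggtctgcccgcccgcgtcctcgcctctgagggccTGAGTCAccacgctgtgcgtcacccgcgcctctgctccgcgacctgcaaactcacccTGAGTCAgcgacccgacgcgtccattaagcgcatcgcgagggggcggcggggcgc
The match is TGACTAAGC in Gclm, TGACAAAGC in Txnrd1 and TGACCCTGC in Sod2, read on that opposite strand. These are matches of letters, and binding was not measured. The windows of Nqo1, Gclc, Slc7a11, Cat and the other start of Txnrd1 did not hold either set of letters. Sequence outside the windows and other forms of the elements were not searched, so a window without a match does not show that a gene lacks them.

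In pMx versus sham, 6 of the 10 genes rose (Hmox1, Txnrd1, Sod2, Srxn1, Slc7a11 and Gclc), 2 fell (Sod3 and Cat), and Nqo1 and Gclm did not pass the test. Among all tested genes, 17.7% rose and 18.9% fell. Of the 10 genes, 1 was a DEG upward (Hmox1) and 2 were DEGs downward (Sod3 and Cat), where 3.36% and 4.85% of all tested genes were. The median log2 fold change of the 10 genes was 0.25, and that of all tested genes was -0.01. In sham versus intact, Hmox1 rose and was a DEG, and none of the 10 fell by limma at this threshold, while 2 (Nqo1 and Sod3) were lower at an unadjusted p below 0.05. Of all tested genes, 6.73% rose and 5.97% fell in that comparison, and 1.42% and 0.533% were DEGs in these directions. In pMx versus intact, 5 of the 10 genes rose (Hmox1, Txnrd1, Sod2, Srxn1 and Slc7a11) and 4 fell (Sod3, Cat, Nqo1 and Gclm), with 1 DEG upward and 2 downward. The shares of all tested genes were 23.4% and 27.1%, with 6.40% and 7.89% as DEGs.

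**Figure D1:**
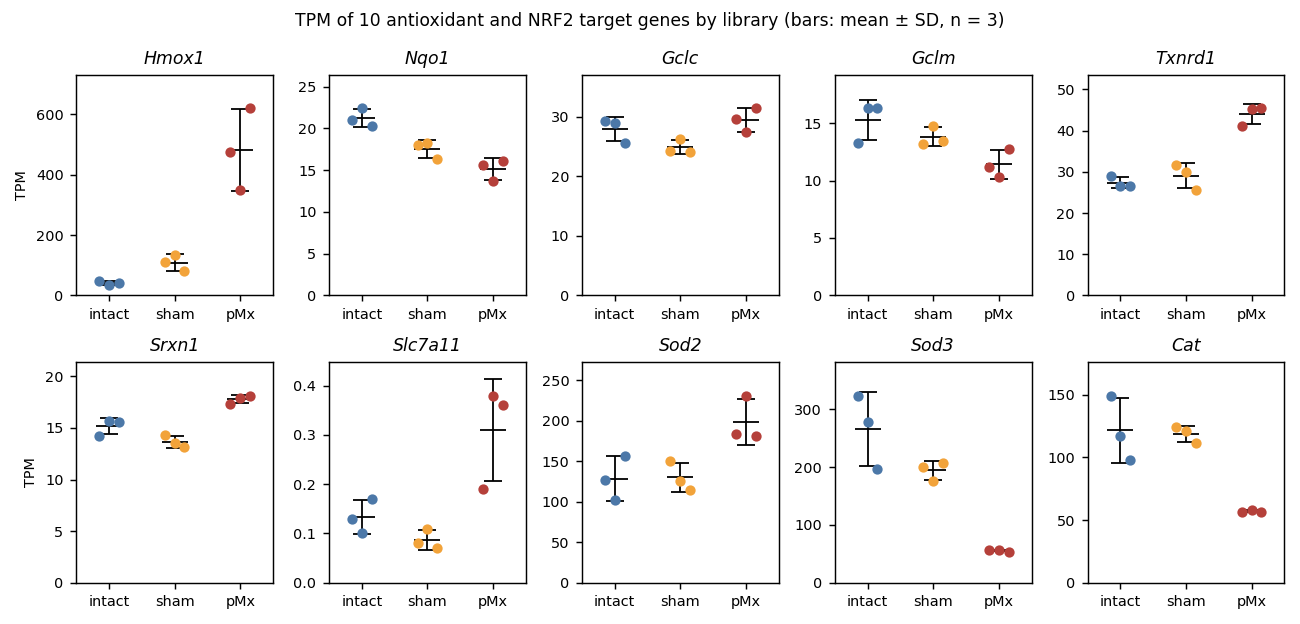
TPM of each of the 10 genes in each of the 9 libraries, 1 panel a gene and each panel with its own axis; points are libraries, and bars give the mean ± SD of 3. Hmox1 steps up from intact to sham to pMx, Sod3 and Cat are lowest in pMx, and Slc7a11 is below 1 TPM throughout.

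**Figure D2:**
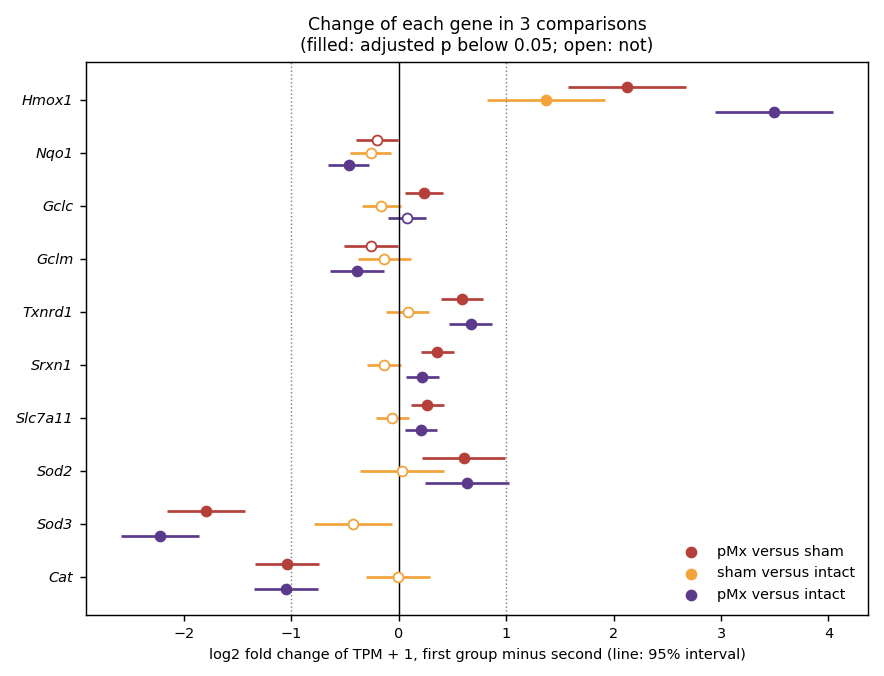
Log2 fold change of TPM + 1 for the 10 genes in the 3 comparisons, with 95% intervals; filled points had an adjusted p below 0.05, open points did not, and dotted lines mark 1 and -1. Hmox1 lies to the right of 1 in each comparison, and Sod3 and Cat lie to the left of -1 in the 2 comparisons with pMx.

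Hmox1 (gene 24451) encodes heme oxygenase-1, the inducible enzyme that breaks heme into biliverdin, iron and carbon monoxide. The intact libraries held 46.98, 35.9 and 39.82 TPM, the sham libraries 111.99, 135.29 and 80.03 TPM, and the pMx libraries 474.74, 348.69 and 619.77 TPM. The 3 groups did not overlap, and every pMx library was above every sham library. Hmox1 rose in pMx versus sham by 2.12 ± 0.24 on the log2 scale (SE; adjusted p = 0.000278), a 4.41-fold ratio of the mean TPM, with a rank of 45 by increase among the tested genes. It rose in sham versus intact by 1.37 ± 0.24 (adjusted p = 0.0118), a ratio of 2.67, and in pMx versus intact by 3.49 (adjusted p = 9.44e-06), a ratio of 11.8. Leaving out each library in turn gave 1.92 to 2.34 in pMx versus sham, and the call was kept in every fit. Hmox2, which encodes the constitutive heme oxygenase, had means of 45.1, 44.0 and 42.6 TPM in intact, sham and pMx, and did not pass the test in any comparison. The ratio of Hmox1 to Hmox2 TPM was 0.909 ± 0.115 in intact, 2.47 ± 0.565 in sham and 11.3 ± 3.14 in pMx (SD, n = 3). Hmox1 made up 6.16% of the summed TPM of the 10 genes in intact, 16.7% in sham and 52.2% in pMx. The other 9 genes summed to 624 ± 76.6 TPM in intact, 543 ± 29.7 TPM in sham and 429 ± 27.1 TPM in pMx.

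Hmox1 acts beside genes for heme and iron handling. Of 19 tested genes of that list, 5 rose and 4 fell in pMx versus sham, where 17.7% and 18.9% of all tested genes did. Without sham replicate 1 the total was 5 of 19 in place of 9. The median of the list was -0.03. Slc40a1, which encodes the iron exporter ferroportin, rose by 1.23 (adjusted p = 0.00107), from a mean of 38.4 to 90.7 TPM. Slc11a1, an iron and manganese transporter of phagocyte vesicles, rose by 1.23 (adjusted p = 0.00178) and had also risen in sham versus intact, by 1.29 (adjusted p = 0.0079). The hemoglobin-haptoglobin receptor gene Cd163 fell by 2.24 on the log2 scale (adjusted p = 0.000259), from a mean of 27.2 to 5.05 TPM. Tfrc, the transferrin receptor gene, rose by 1.58 (adjusted p = 0.0427), a call lost in 8 alternatives, among them leaving out any 1 sham or pMx library. It was at 5.14, 5.61 and 3.96 TPM in sham and 20.12, 17.53 and 12.72 TPM in pMx. In intact it was at 5.01, 5.08 and, in replicate 3, 25.56 TPM, and the fit takes its spread from all 9 libraries. The call was kept with only the 6 libraries of the comparison. Hp, which encodes haptoglobin, fell by 2.39 on the log2 scale (adjusted p = 0.0151) and did not pass without sham replicate 1 (adjusted p = 0.0539). Its order was that of the summed TPM of adipocyte markers within intact and within sham, and not within pMx. The part of adipocytes in the fall of Hp was not tested. Blvrb, which encodes a biliverdin reductase, fell by 0.36 (adjusted p = 0.0111). Ftl1, which encodes the ferritin light chain, had means of 2205, 3487 and 4461 TPM in intact, sham and pMx, a rise of 1.01 in pMx versus intact (adjusted p = 0.000164).

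Red blood cell, macrophage and fibroblast markers also differed between the groups. The 7 red blood cell markers summed to 18970 to 36590 TPM in intact, 9462 to 14360 TPM in sham and 793.7 to 929.5 TPM in pMx, so that Hmox1 was highest where they were lowest. In pMx versus sham 6 of these 7 fell. The 11 macrophage markers found in the table summed to 2725 to 4625 TPM in intact, 7131 to 7963 TPM in sham and 8060 to 8397 TPM in pMx. Lyz2 alone made up most of each sum, with means of 2144, 5729 and 6654 TPM in intact, sham and pMx. In sham versus intact 6 of the 11 rose. In pMx versus sham, where Hmox1 differed 4.41-fold, 1 rose (Cd68, by 0.47, adjusted p = 0.0428) and 2 fell (Cd163 and C1qb), with a median of -0.12 over the 11. The 6 fibroblast markers summed to 8610 to 12500 TPM in intact, 19050 to 22380 TPM in sham and 42480 to 45700 TPM in pMx. Of the 6, 4 rose and 1 fell in pMx versus sham. The collagen genes Col1a1 and Col3a1 made up most of the pMx sums, with means of 15670 and 17810 TPM. Dcn had means of 4683 TPM in sham and 2441 TPM in pMx, and Pdgfra had 84.6 and 79.8 TPM. The part of these cell types in the Hmox1 level was not tested.

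**Figure D3:**
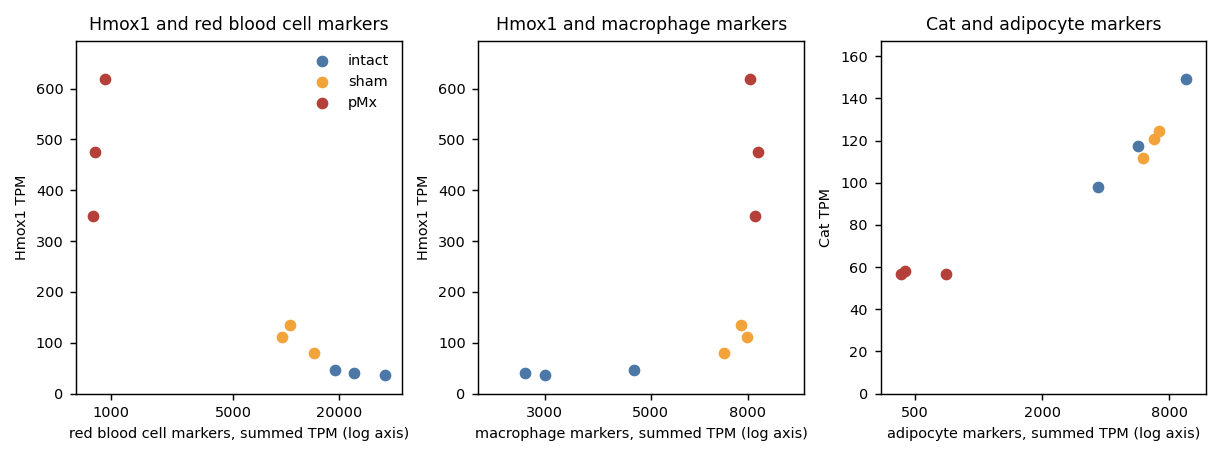
Left and middle, Hmox1 TPM against the summed TPM of red blood cell and macrophage markers; right, Cat TPM against that of adipocyte markers (horizontal axes are log axes; each point is 1 of 9 libraries). The sham and pMx libraries lie close together on the macrophage axis, where Lyz2 makes up most of the sum, and far apart in Hmox1. The 3 pMx libraries lie lowest on both axes of the right panel.

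Among the regulators of NRF2, 3 of 15 rose and 3 fell in pMx versus sham, with a median of -0.08. These counts are near the shares of all tested genes, of which 17.7% rose and 18.9% fell. Nfe2l2, the gene for NRF2 itself, was at 101.75, 107.35 and 85.14 TPM in intact, 97.46, 95.15 and 90.72 TPM in sham and 72.79, 73.4 and 70.04 TPM in pMx. Every pMx library was below every other library, and Nfe2l2 fell by 0.38 on the log2 scale versus sham (adjusted p = 0.00724). Keap1 had means of 34.2 TPM in sham and 32.1 TPM in pMx (log2 fold change -0.09, adjusted p = 0.437). Bach1, which encodes a heme-sensing repressor of Hmox1 and other NRF2 targets, rose by 0.63 (adjusted p = 0.00206), and Dpp3, whose protein can bind KEAP1, rose by 0.43 (adjusted p = 0.011). Mafk, a small MAF partner of NRF2 and BACH1, fell by 0.78 (adjusted p = 0.000216), and the NRF2 relative Nfe2l1 fell by 0.64 (adjusted p = 0.000142). The mRNA levels do not report the amount or location of the NRF2 protein, which KEAP1 controls after translation.

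Txnrd1 (gene 58819) encodes the cytosolic thioredoxin reductase, which recharges thioredoxin with electrons from NADPH. It was at 28.86, 26.58 and 26.48 TPM in intact, 31.56, 29.93 and 25.61 TPM in sham and 41.17, 45.35 and 45.42 TPM in pMx. Intact and sham overlapped, and every pMx library was above both. Txnrd1 rose in pMx versus sham by 0.59 ± 0.09 (SE; adjusted p = 0.00103), a ratio of 1.51, and in pMx versus intact by 0.67 (adjusted p = 0.000272), a ratio of 1.61. The difference between sham and intact was 0.08 (adjusted p = 0.588).

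Srxn1 (gene 296271) encodes sulfiredoxin, which repairs overoxidized peroxiredoxins. Its levels were 14.25, 15.66 and 15.54 TPM in intact, 14.3, 13.53 and 13.15 TPM in sham and 17.36, 17.91 and 18.14 TPM in pMx. The pMx libraries were above all others and lay close together. Srxn1 rose by 0.36 ± 0.07 in pMx versus sham (SE; adjusted p = 0.00392), a ratio of 1.30. It rose by 0.22 in pMx versus intact (adjusted p = 0.026), which was lost without intact replicate 1 (adjusted p = 0.0863) or without any 1 of the pMx libraries (adjusted p = 0.0531 to 0.0782).

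Around these 2 genes, 3 of 19 genes for thioredoxins, peroxiredoxins and methionine sulfoxide reductases rose in pMx versus sham and 5 fell, with a median of 0.01. The shares of all tested genes were 17.7% and 18.9%. Nxn, which encodes nucleoredoxin, rose by 1.03 (adjusted p = 0.000739), and Prdx5, a peroxiredoxin of mitochondria and peroxisomes, rose by 0.67 (adjusted p = 0.00377). Txnip, whose protein binds and inhibits thioredoxin, fell by 1.27 on the log2 scale (adjusted p = 0.000442), from a mean of 542 to 223 TPM. Txnrd3, a thioredoxin-glutathione reductase, fell by 0.90 (adjusted p = 0.000858). Txn1, the substrate of Txnrd1, had means of 591 TPM in sham and 604 TPM in pMx (log2 fold change 0.03, adjusted p = 0.826).

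Gclc (gene 25283) encodes the catalytic subunit of glutamate-cysteine ligase, the rate-limiting enzyme of glutathione synthesis. It was at 29.2, 28.98 and 25.63 TPM in intact, 24.31, 26.2 and 24.05 TPM in sham and 29.59, 27.35 and 31.4 TPM in pMx. The pMx libraries were above the sham libraries and overlapped with the intact ones. Gclc rose by 0.23 ± 0.08 in pMx versus sham (SE; adjusted p = 0.0439), a call that was lost in 7 of 9 fits that left out 1 library. In pMx versus intact the difference was 0.07, with a 95% interval of -0.10 to 0.25 (adjusted p = 0.466).

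Gclm (gene 29739), the modifier subunit that makes the ligase more efficient, had its lowest values in pMx. Its levels were 13.28, 16.29 and 16.29 TPM in intact, 13.22, 14.74 and 13.43 TPM in sham and 11.19, 10.28 and 12.78 TPM in pMx. Every pMx library was below every sham library, with a log2 fold change of -0.26 (95% interval -0.51 to -0.01) that did not pass the test (adjusted p = 0.102). It fell by 0.39 on the log2 scale in pMx versus intact (adjusted p = 0.0165), a call lost without intact replicate 2 (adjusted p = 0.0543), pMx replicate 1 (adjusted p = 0.0509) or pMx replicate 2 (adjusted p = 0.0624). The ratio of Gclc to Gclm TPM was 1.57 to 2.20 in intact, 1.78 to 1.84 in sham and 2.46 to 2.66 in pMx.

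Slc7a11 (gene 310392) encodes the xCT subunit of the cystine importer, which supplies cysteine for glutathione. It was scarcely detected, at 0.13, 0.1 and 0.17 TPM in intact, 0.08, 0.11 and 0.07 TPM in sham and 0.19, 0.38 and 0.36 TPM in pMx. The pMx libraries were the highest, but no library reached 1 TPM. On the log2(TPM + 1) scale, which understates changes of such low genes, Slc7a11 rose by 0.27 in pMx versus sham (adjusted p = 0.0137), and without pMx replicate 2 the adjusted p was 0.0503. With a pseudocount of 0.1 the change was 1.11 (adjusted p = 0.0113), and with 0.01 it was 1.69 (adjusted p = 0.0178). In pMx versus intact it rose by 0.21 (adjusted p = 0.0293), which was lost without intact replicate 1 or 2 or pMx replicate 2 or 3. Slc3a2, the heavy chain that carries xCT and other transporters to the membrane, had means of 141 TPM in sham and 138 TPM in pMx (log2 fold change -0.02, adjusted p = 0.926).

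Of 27 other genes of the glutathione system, 4 rose and 12 fell in pMx versus sham, with a median of -0.15. The shares of all tested genes were 17.7% and 18.9%. Ggt7, of the gamma-glutamyltransferase family, rose by 1.21 (adjusted p = 0.000318), and the endoplasmic reticulum peroxidase gene Gpx7 rose by 0.54 (adjusted p = 0.00131), after a rise of 0.79 in sham versus intact (adjusted p = 0.00274). Mgst1, a membrane-bound glutathione transferase, fell by 2.99 on the log2 scale (adjusted p = 0.00273), from a mean of 336 to 41.1 TPM. All 10 adipocyte markers fell in pMx versus sham as well, with a median of -4.73. Mgst1 was at 299.72, 139.04 and 47.74 TPM in intact, 381.48, 332.83 and 293.18 TPM in sham and 43.4, 36.84 and 43.15 TPM in pMx; its order within a group was that of the summed adipocyte markers in intact and in sham and not in pMx. The part of adipocytes in the falls of glutathione genes was not tested. Gpx3, the secreted glutathione peroxidase, fell by 1.17 (adjusted p = 0.00019), from 1376 to 610 TPM. The ubiquitous peroxidase genes Gpx4 and Gpx1 fell by 0.32 (adjusted p = 0.00343) and by 0.26 (adjusted p = 0.00939) on the log2 scale.

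A list of amino acid stress genes was set around ATF4, the stress factor that also drives Slc7a11. It also held Atf4 itself and genes outside amino acid metabolism, such as Ddit3 and Trib3. The list split in pMx versus sham: 7 of 23 rose and 5 fell, with a median of -0.02. The shares of all tested genes were 17.7% and 18.9%. The mitochondrial folate enzyme genes Aldh1l2 and Mthfd2 rose by 1.55 (adjusted p = 0.000368) and by 1.54 (adjusted p = 0.000162). Slc7a5, an importer of large neutral amino acids, rose by 1.40 (adjusted p = 0.000106). Phgdh, the first enzyme of serine synthesis, fell by 2.66 on the log2 scale (adjusted p = 0.00232), and Cbs, which leads homocysteine toward cysteine, fell by 1.81 (adjusted p = 3.06e-05). The order of Phgdh was that of the summed adipocyte markers in intact (39.19, 16.35 and 7.99 TPM) and not in sham or pMx. The part of adipocytes in these falls was not tested.

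Nqo1 (gene 24314) encodes a quinone reductase that is a textbook target of NRF2. It was at 21.04, 22.42 and 20.29 TPM in intact, 18, 18.28 and 16.37 TPM in sham and 15.68, 13.65 and 16.09 TPM in pMx. The groups stepped down without overlap, opposite in order to Hmox1. The change was -0.20 in pMx versus sham (95% interval -0.39 to -0.01, adjusted p = 0.0929) and -0.26 in sham versus intact (95% interval -0.45 to -0.07, adjusted p = 0.0764), neither past the test. In pMx versus intact Nqo1 fell by 0.47 on the log2 scale (adjusted p = 0.00181). The ratio of Hmox1 to Nqo1 TPM was 1.93 ± 0.317 in intact, 6.17 ± 1.26 in sham and 31.5 ± 6.57 in pMx (SD, n = 3).

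Of 32 further NRF2 targets tested, 6 rose and 10 fell in pMx versus sham, where 17.7% and 18.9% of all tested genes did. Their median was -0.04, and without sham replicate 3 the total was 9 in place of 16. No gene of the list was a DEG upward and 4 were DEGs downward, where 3.36% and 4.85% of all tested genes were. Akr1b8, an aldo-keto reductase gene, rose by 0.82 (adjusted p = 0.00396). The genes that fell most were for detoxifying enzymes. The glutathione transferase gene Gsta1 fell by 2.79 on the log2 scale (adjusted p = 1.73e-05), from a mean of 146 to 20.5 TPM. The epoxide hydrolase gene Ephx1 fell by 2.04 (adjusted p = 2.95e-05), from 86.6 to 20.4 TPM, and the aldehyde dehydrogenase gene Aldh3a1 fell by 2.02 (adjusted p = 0.000211), from 6.12 to 0.747 TPM.

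Sod2 (gene 24787) encodes the manganese superoxide dismutase of mitochondria, a gene that inflammatory cytokines are known to induce. It was at 127.14, 101.95 and 156.78 TPM in intact, 150.18, 126 and 114.66 TPM in sham and 183.46, 231.26 and 181.2 TPM in pMx. Every pMx library was above all others, while intact and sham overlapped. Sod2 rose by 0.60 ± 0.17 in pMx versus sham (SE; adjusted p = 0.0229), a ratio of 1.52. The call was lost without sham replicate 2 (adjusted p = 0.0638), sham replicate 3 (adjusted p = 0.0854) or pMx replicate 2 (adjusted p = 0.0821). In pMx versus intact it rose by 0.64 (adjusted p = 0.0133), which was lost without pMx replicate 2 (adjusted p = 0.0504).

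Sod3 (gene 25352) encodes the secreted superoxide dismutase, which binds to heparan sulfate in the extracellular matrix. Its levels were 323.75, 278.67 and 197.26 TPM in intact, 200.9, 175.77 and 206.26 TPM in sham and 55.92, 55.99 and 53.99 TPM in pMx. The pMx libraries were far below the others and within 2 TPM of each other, and intact and sham overlapped through intact replicate 3. Sod3 fell by 1.79 on the log2 scale in pMx versus sham (SE 0.16; adjusted p = 9.47e-05), to 0.285 of the sham mean, and it fell by 2.22 in pMx versus intact (adjusted p = 1.13e-05). Both calls were kept in every fit that left out 1 library. In sham versus intact the change was -0.43 (95% interval -0.79 to -0.07, adjusted p = 0.116). Without intact replicate 3, the library that stood apart by its skeletal muscle markers (44730 TPM summed, against 87.53 and 269.8 TPM in the other intact libraries), it was -0.63 (adjusted p = 0.00512).

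Sod1 (gene 24786), the abundant cytosolic superoxide dismutase, is not 1 of the 10 genes and completes the family. It was at 682.76, 659.27 and 695.94 TPM in intact, 627.12, 563.37 and 659.85 TPM in sham and 454.07, 419.29 and 401.59 TPM in pMx. Its pMx libraries were below all others, and it fell by 0.54 on the log2 scale in pMx versus sham (adjusted p = 9e-04). Of the summed TPM of the 3 genes, Sod3 took 24.7% ± 5.21 in intact, 20.6% ± 0.364 in sham and 8.15% ± 0.291 in pMx (SD, n = 3). Sod2 took 9.8% to 14.93% in the intact libraries, 11.69% to 15.35% in the sham libraries and 26.46% to 32.73% in the pMx libraries. The sum was 1075 ± 51.5 TPM in intact, 941 ± 66.1 TPM in sham and 679 ± 37.0 TPM in pMx. The ratio of Sod3 to Sod2 TPM was 1.26 to 2.73 in intact, 1.34 to 1.80 in sham and 0.242 to 0.305 in pMx. In each intact and sham library there was more Sod3 than Sod2 per length, and in each pMx library there was less.

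**Figure D4:**
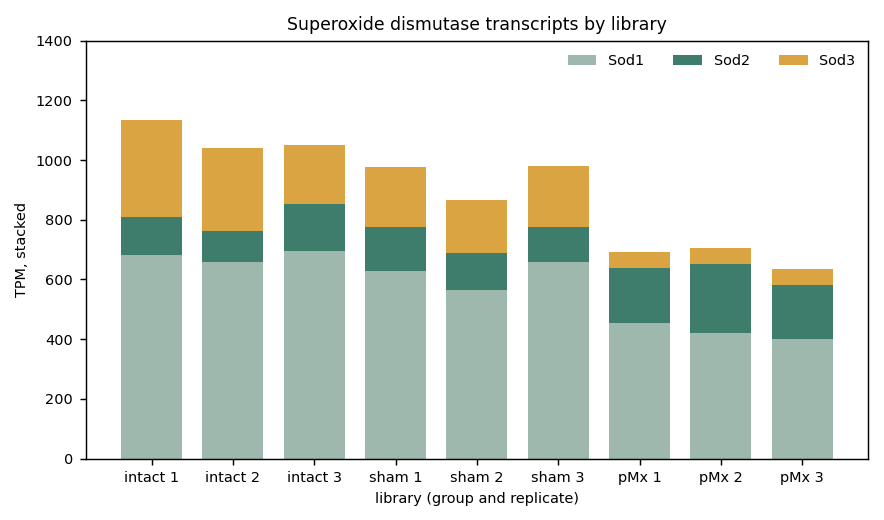
Stacked TPM of Sod1, Sod2 and Sod3 in each of the 9 libraries. The 3 pMx bars are the shortest, at 636.8 to 706.5 TPM, and hold the thinnest Sod3 and the thickest Sod2 layers.

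Cat (gene 24248) encodes catalase, the peroxisomal enzyme that splits hydrogen peroxide into water and oxygen. It was at 149.41, 117.2 and 97.99 TPM in intact, 124.31, 120.88 and 111.89 TPM in sham and 56.83, 58.23 and 56.56 TPM in pMx. Intact spanned the sham values, and the pMx libraries were below all of them and within 2 TPM of each other. Cat fell by 1.04 on the log2 scale in pMx versus sham (SE 0.13; adjusted p = 0.000468), to 0.481 of the sham mean, and it fell by 1.05 in pMx versus intact (adjusted p = 0.000222). The difference between sham and intact was -0.01, with a 95% interval of -0.31 to 0.29 (adjusted p = 0.973).

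Catalase sits in peroxisomes, and of 28 peroxisome genes 14 fell and 1 rose in pMx versus sham, with a median of -0.22. Of all tested genes, 18.9% fell and 17.7% rose. Abcd2, a fatty acid importer of the peroxisome, fell by 2.72 on the log2 scale (adjusted p = 0.0004), and Pex11a, which takes part in peroxisome division, fell by 1.08 (adjusted p = 0.0108). Amacr, a racemase of branched-chain fatty acid breakdown, rose by 0.59 (adjusted p = 0.00323). All 10 adipocyte markers fell in pMx versus sham, as Cat did. Their sum was 9603, 5718 and 3656 TPM in intact, 7184, 6769 and 6017 TPM in sham and 427.5, 444.6 and 696.1 TPM in pMx. None of the 10 passed the test in sham versus intact, where their median was 0.85 and the change of Cat was -0.01. Within the 3 intact and the 3 sham libraries, the order of Cat was the order of the adipocyte sum, and in pMx it was not, where the library with the highest sum had the lowest Cat. Adipoq, a defining adipocyte gene, was at 3.2, 0.71 and 11.65 TPM in pMx and at 649.44 to 879.71 TPM in sham, and Lep was listed at 0 in 2 of the 3 pMx libraries. The order of Sod3 was that of the adipocyte sum in intact and not in sham or pMx. Other cell type markers fell in pMx versus sham too. Of 5 synovial lining markers 3 fell and 1 rose, with a median of -0.86. Of 8 endothelial markers 3 fell and 0 rose, with a median of -0.11. The part of adipocytes, synovial lining or endothelium in the fall of Cat and Sod3 was not tested.

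Enzymes that make oxidants stand opposite to these genes, and metallothioneins beside them. Of 16 genes for NADPH oxidases and other oxidant producers, 5 fell in pMx versus sham and none rose by limma, where 2 were higher at an unadjusted p below 0.05. The median of the 16 was -0.03, and without intact replicate 1 the total past the test was 8. Of all tested genes, 18.9% fell and 17.7% rose in pMx versus sham. In sham versus intact 5 of the 16 rose and 1 fell, where 6.73% and 5.97% of all tested genes did. That total of 6 was 3 without intact replicate 2, 2 without sham replicate 1 and 1 without sham replicate 2. Between pMx and intact 6 of the 16 rose and 5 fell, where 23.4% and 27.1% of all tested genes did. Cybb (1.11, adjusted p = 0.00161), Duox1 (1.09, adjusted p = 0.000414) and Nox4 (1.02, adjusted p = 7.75e-05) were DEGs upward there. In pMx versus sham, Mpo, the myeloperoxidase gene of neutrophils, fell by 3.57 on the log2 scale (adjusted p = 0.00283), from a mean of 11.8 to 0.0567 TPM. Aox1, an aldehyde oxidase gene, fell by 1.91 (adjusted p = 3.06e-05). Cyp2e1, a cytochrome P450 gene, was listed at 0 in the pMx libraries and at 17.98, 8.2 and 6.93 TPM in the sham libraries. Mpo is also 1 of the 8 neutrophil markers, and it was the 1 of them that fell in pMx versus sham. The 8, with Mpo, summed to 67.02 to 193.8 TPM in intact, 42.28 to 51.45 TPM in sham and 9.87 to 26 TPM in pMx. Mpo was at 22.69, 12.14 and 1.86 TPM in intact and at 14.4, 11.66 and 9.24 TPM in sham. Within both groups, the order of Mpo and of Cyp2e1 was that of the summed adipocyte markers. For Mpo it was not that of the summed neutrophil markers. The part of adipocytes in these falls was not tested. In sham versus intact, Nox4, a NADPH oxidase gene that yields hydrogen peroxide, rose by 0.78 (adjusted p = 0.00524), and Cybb, the phagocyte NADPH oxidase gene, rose by 0.86 (adjusted p = 0.0276), a call lost without intact replicate 2 or any 1 of the sham libraries (adjusted p up to 0.0926). Between pMx and sham Cybb did not pass the test (0.25, adjusted p = 0.356). The metallothionein list had 4 tested genes: Mt1, Mt2A, Mt3 and Mtf1, which encodes a transcription factor and not a metallothionein. Of these 4, 2 rose in pMx versus sham, with a median of 0.55, and 1 without sham replicate 3 or pMx replicate 2. Mt1, which binds zinc and copper, rose by 1.49 (adjusted p = 0.00187), from a mean of 115 to 314 TPM.

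**Figure D5:**
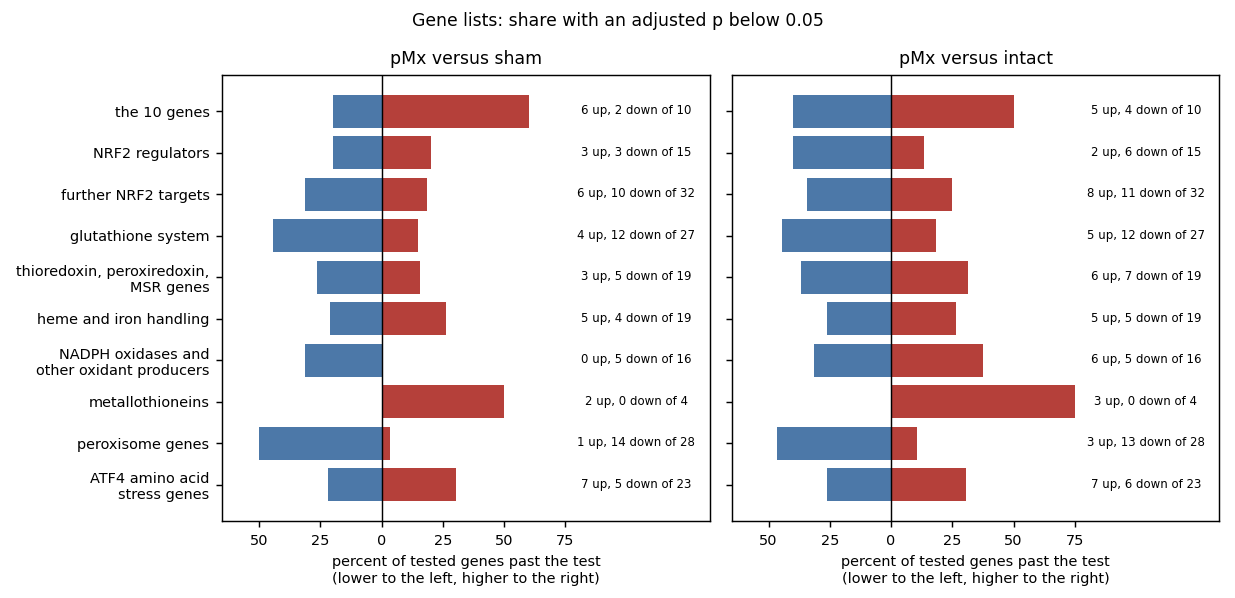
For the 10 genes and 9 further lists, the percent of tested genes that fell (left, blue) or rose (right, red) at an adjusted p below 0.05, in pMx versus sham and in pMx versus intact, with the counts written beside the bars. The peroxisome, glutathione, further NRF2 target and thioredoxin lists have longer bars to the left than to the right in both panels. Of all tested genes, which are not drawn, 18.9% fell and 17.7% rose in pMx versus sham. In pMx versus intact 27.1% fell and 23.4% rose.

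The patterns across the 9 libraries were set beside those of 13200 genes with a mean of at least 1 TPM. By Pearson's r of log2(TPM + 1), given as a description because the libraries share groups, Hmox1 was most like Rab26 (0.995), Il11 (0.994) and Mcm5 (0.994). Sod3 was most like Amt, Dpyd and Cst3 (0.997 to 0.999), and Cat was most like Trarg1, Acad11 and Aldh2 (0.994 to 0.997).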

How the data were processed

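RNA sequencing covered 9 libraries, 3 each of intact, sham and pMx, grouped by their titles. The authors deposited 1 table of TPM per gene, written with 2 decimals. The submitters' processing notes name HISAT2 2.0.4 and the build mRatBN7.2; the counting tool and annotation are not given in the sources used here. Depth is unknown. log2(TPM + 1) of the 16512 genes above 0 TPM in at least 3 of 9 libraries was fitted with limma 3.58.1 in R 4.3.3 (1 mean per group over all 9 libraries, eBayes with trend), with Benjamini-Hochberg adjustment per comparison.

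The 10 genes, the further lists and the markers were chosen with earlier results of these data known. Named genes of a list were, per comparison, up to 3 that rose most and up to 3 that fell most among those past the test with a mean of at least 1 TPM; Keap1, Slc3a2, Hmox2, Txn1, Gpx1 and Gpx4, and values of listed genes in a comparison where they fall outside this rule, were added for their roles after their values were seen. For each gene, the 3 most similar patterns were also taken. Some genes of the lists are not reported here.

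The calculation was tested on simulated data for pMx versus sham over 16512 genes, with independent normal noise. Of 100 genes changed by 1 on the log2 scale 86% were called, and of 100 changed by 2 it was 94%, with 9 unchanged genes. The changed genes were drawn from those with a mean log2(TPM + 1) above 1, and they were far fewer than the genes that passed in the data. Changes below 1, and changes of genes as low as Slc7a11, were not simulated. Changes of the antioxidant and NRF2 target genes, and of the list genes named by the rule above, were recomputed under other settings. These were no filter, only genes averaging 1 TPM or more, a pseudocount of 0.1 or 0.01, and quantile or median-of-ratios scaling. Further settings were 6 libraries only, eBayes without trend or robust, a replicate block, and leaving out each library. The list counts were also recomputed leaving out each library. Counts of the antioxidant and NRF2 target genes were also taken at an adjusted p below 0.01. Values added for their roles, marker counts and sums, ratios and correlations are given with the main settings only. Figures were drawn with Matplotlib 3.10.9. Promoter windows came from RefSeq (GRCr8) and were matched by gene identifier, with no coordinates taken across builds.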

Additional observations from a re-analysis of the deposited data

How the results depend on the processing

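Leaving out each library gave 6 to 8 of the 10 genes past the test in pMx versus sham, 1 to 2 in sham versus intact (2 without intact replicate 3) and 5 to 9 in pMx versus intact (5 without pMx replicate 2), with 3, 1 and 2 to 3 DEGs. The share of all tested genes past the test moved too, over 27.0% to 45.3%, 3.80% to 18.0% and 43.0% to 54.0%. At an adjusted p below 0.01 the counts were 5, 0 and 5, where 22.8%, 2.54% and 36.7% of all tested genes passed, with 0 DEGs in sham versus intact (1.15% of all tested genes), and there limma gave 3 genes (Hmox1, Nqo1 and Sod3) an unadjusted p below 0.05. For pairing, the deviation of each library from its group mean was taken for each gene. Between same-numbered libraries these deviations correlated at 0.035 to 0.485 for pMx and sham and at -0.493 to 0.002 for sham and intact. For pMx and intact they correlated at -0.664 to -0.378. By these deviations, 5 of 6 samples in pMx versus sham correlated best with their own number, against 0 of 6 in each other comparison. Since 1 pair of pMx and sham was at 0.035 and the labels name nothing shared, the numbers were not taken to pair the samples. With the replicate block the counts were 6, 1 and 9 (35.7%, 9.60% and 49.7% of all tested genes), and Gclc (adjusted p = 0.0771) and Sod2 (adjusted p = 0.0541) did not pass in pMx versus sham. In sham versus intact, where neither gene passed, Sod2 ranged from -0.12 to 0.18 as libraries were left out, changing sign without intact replicate 2 (-0.124) or sham replicate 1 (-0.075), and Cat ranged from -0.15 to 0.15, changing sign without intact replicate 1 (0.149) or sham replicate 3 (0.034) and with median-of-ratios (0.01) or quantile scaling (0.005). With pseudocounts of 0.1 and 0.01 Slc7a11 became a DEG in pMx versus sham, and a minimum mean of 1 TPM removed it from the test. In pMx versus intact, Gclm did not pass with quantile scaling (adjusted p = 0.0535), Srxn1 with 6 libraries (adjusted p = 0.0536) and Slc7a11 with a pseudocount of 0.01 (adjusted p = 0.0644) or 6 libraries (adjusted p = 0.0648). Values with 2 decimals limit the precision of Slc7a11, and without read numbers no counting error can be given.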
